A study of Homo sapiens with 12 samples.

Results

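This comparison sets KELLY cells given the BPS1 morpholino against KELLY cells given a control oligonucleotide. Its members are 8 of the 12 libraries in the series, chosen by their labels, with 4 libraries a side, and the genes tested were the 19785 of 55771 in the deposited table that reached a value of 10 in 4 or more of these 8 libraries. KELLY is an established human neuroblastoma line with amplified MYCN. Both groups grew for 24 h in 10% serum, were changed to 4% serum and were transfected with 50 nM of an oligonucleotide held in a lipid complex by a DNA leash, and both were lysed after 48 h. By the labels the groups differ in the oligonucleotide alone, so transfection, leash and lipid are shared by the controls. The labels used here name no batch, so a batch that followed the groups could not be told apart from the oligonucleotide. The other 4 libraries received a second morpholino, BPS2, in the same way and are used only where BPS1 is set directly against BPS2. Nothing in the labels ties the 4 libraries of a group to separate cultures, and the p-values therefore reflect spread among these libraries that may be technical.

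A morpholino is an uncharged nucleic acid analogue that pairs with a chosen RNA and blocks what would otherwise bind there, usually without leading to cleavage of that RNA. NEAT1 is a nuclear long non-coding RNA with a short and a long form that share their 5′ end. The long form, NEAT1_2, is the scaffold of paraspeckles, nuclear bodies that hold RNA-binding proteins such as NONO, SFPQ and PSPC1. Neuroblastoma arises from sympathetic precursors, and lines of the adrenergic kind keep the transcription factors HAND2, GATA3 and ISL1 and the enzymes of noradrenaline synthesis. The series text asks what changes across the transcriptome when NEAT1_2 and paraspeckles increase.

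The deposited values are normalized counts. Their totals were 29.6 to 33.3 M per library, and dividing by the value of 1 read in each library gave 29.1 to 31.8 M. The labelled cell type was checked by markers: all 11 adrenergic neuroblastoma genes passed the filter on low values, and 0 of 8 blood cell markers did. Of the 11 neuroblastoma genes 3 were lower in BPS1 and 0 higher (7 and 0 at an unadjusted p under 0.05), with a median log2 fold change of −0.30. Of the markers of other cells, 3 of 5 endothelial, 6 of 6 fibroblast, 3 of 6 epithelial and 3 of 5 glial genes were tested, and limma called 0 of these 15 at an adjusted p under 0.05, while 1 endothelial marker was lower and 1 fibroblast and 1 glial marker were higher at an unadjusted p under 0.05. SOX10, KRT5 and KDR, which define glia, basal epithelium and endothelium, averaged 0, 0 and 1.15 in control and 0.129, 0.117 and 0 in BPS1. Other markers were present: the highest counts of their lists, PDGFRB, KRT19, VWF and GFAP, averaged 2553, 151, 102 and 74.9 in control and 2546, 161, 150 and 99.1 in BPS1. BPS1 replicate 4 and control replicate 1 stood apart. Deviations from each gene's median, on the log2 scale, had an SD over genes of 0.590 and 0.466 in these and 0.332 to 0.367 in the other 6. The same 2 libraries deviated upward with transcript GC content (Spearman's rho across genes, which are not independent, of 0.338 and 0.181, against −0.173 to −0.0388 in the others). Beside each gene list below stands the number of calls without both, and a call is marked where it was lost once each library's trend on GC content was removed. GC content was known for 19154 of the 19785 genes, and calls of the rest could not be marked. Losses on leaving out single libraries are given for some genes only. Of the 109 genes that the naming rule chose, 60 kept their call in every such omission, so an unmarked call may have been lost. Without both, 8 of the 11 neuroblastoma markers were lower and 0 higher.

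**Figure D1:**
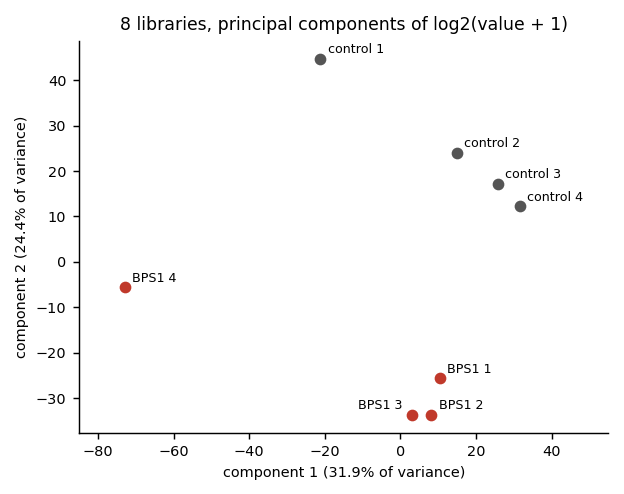
Principal components of log2(value + 1) over the genes tested, 1 point per library, with control in grey and BPS1 in red. Component 1 (31.9% of the variance) sets BPS1 replicate 4 apart at −72.8, and component 2 (24.4%) places the controls between 12.3 and 44.8 and the BPS1 libraries between −33.6 and −5.52.

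NEAT1, the gene the series text is about, was lower with BPS1. Its row held 6926, 7021, 7074 and 6494 in control replicates 1 to 4 and 2379.9, 2150.1, 2150 and 1414 in BPS1 replicates 1 to 4. Each BPS1 library lay far below each control, and BPS1 replicate 4 was the lowest. The log2 fold change, here and below the mean of log2(value + 1) in BPS1 minus that in control with its standard error, was −1.79 ± 0.15 (limma, Benjamini-Hochberg adjusted p over all genes tested = 3.87e-04). An exact two-sided permutation test gave p = 0.0286, the smallest that 70 arrangements of 4 against 4 allow. Without BPS1 replicate 4 and control replicate 1 the log2 fold change was −1.62. The gene has 8 annotated transcripts and 1 row (chr11:65422774-65445540, plus strand, GRCh38), so the row does not separate NEAT1_2 from the short form and does not check whether NEAT1_2 rose.

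The largest fall among called genes with a group mean of at least 100 was also at this locus. RF01957 is a short row annotated from base 1186 to base 1344 of NEAT1, in the stretch that the short and the long form share, at chr11:65423960-65424118 on the plus strand. Its sequence is shown because the row repeats letters of NEAT1 itself, read from the GRCh38 transcripts of GENCODE release 29, with no part in capitals.
RF01957: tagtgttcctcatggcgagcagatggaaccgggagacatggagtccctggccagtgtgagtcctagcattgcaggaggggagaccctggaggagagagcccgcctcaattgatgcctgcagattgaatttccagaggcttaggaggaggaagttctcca
Reads from these 159 bases can be assigned to RF01957 or to NEAT1, so both rows are uncertain. The row held 155, 180.0, 207 and 189.6 in the control libraries and 32.2, 23.5, 22.4 and 12.02 in the BPS1 libraries. It fell by 3.04 on the log2 scale (adjusted p = 3.87e-04), with no overlap between the groups, as the rule that chose it required.

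A few genes of paraspeckle proteins changed, in both directions. Of 34 tested members of this list, NEAT1 included, 2 were higher and 3 lower (14.7%, against 4.69% of all genes tested), and the median log2 fold change was −0.01, beside 0.00034 over all genes tested. Over all genes 2.32% were called higher and 2.37% lower. PSPC1, a core paraspeckle protein of the family of NONO and SFPQ, rose from 3012 ± 155 to 4074 ± 443 (SD, n = 4; log2 fold change 0.43 ± 0.09, adjusted p = 0.0299). RBM3, a cold-inducible RNA-binding protein, fell by 0.34. PSPC1 and RBM3 were each not called in 6 omissions of a single library. The essential pair NONO and SFPQ had log2 fold changes of −0.13 and −0.13 and did not pass (adjusted p = 0.448 and 0.404). Without the 2 libraries that stood apart 7 members were higher and 6 lower.

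Across the transcriptome 459 genes were higher in BPS1 and 468 lower, together 4.69% of those tested. At least 2-fold changes were fewer, with 135 genes higher (0.682%) and 88 lower (0.445%), and 362 of the 927 called genes changed by less than 1.5-fold. In 926 of the 927 the 4 BPS1 libraries did not overlap the 4 controls, a separation that 7.68% of all genes showed upward and 6.94% downward. FOS is the exception. Without both libraries that stood apart 1148 of the 19785 genes tested were higher and 1319 lower. These are the background for the counts of each list without both. The counts depended on each library: leaving out BPS1 replicate 4 gave 629 and 780, and leaving out any 1 of the other 7 gave 157 to 283 higher and 156 to 320 lower. The smallest shares of calls were among low rows: 1.70% of the 4947 genes with the lowest means, up to 36.4, were called, against 5.44% to 5.86% in each of the 3 groups of like size above them. On simulated data of the same size the fit found 14 of 100 genes altered 1.5-fold and 53 of 100 altered 2-fold, and 3 of its 70 calls were false. The simulated noise was independent between genes and of equal size in every library, unlike that of the libraries that stood apart. Its share of false calls therefore does not carry over to the 927 genes.

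**Figure D2:**
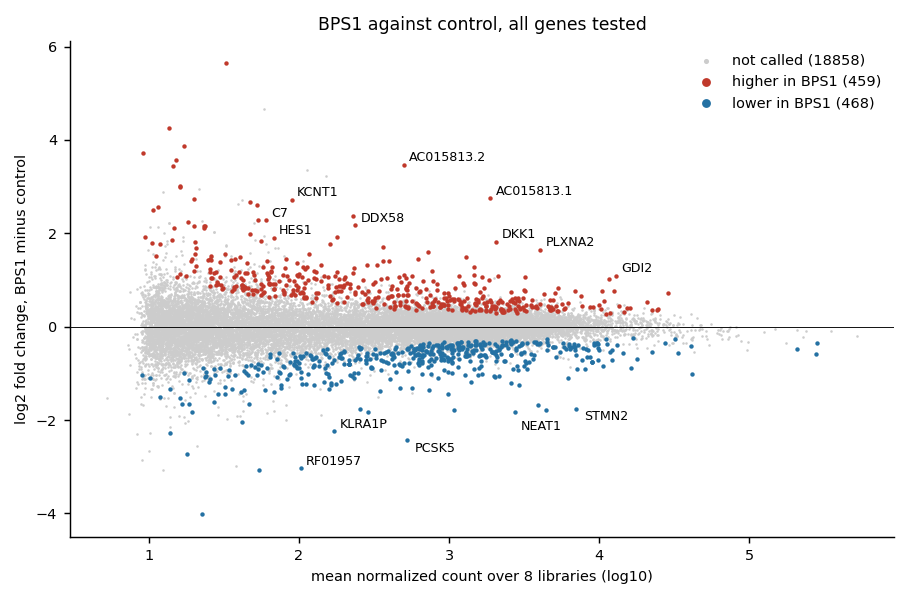
Log2 fold change of BPS1 over control against the mean normalized count over the 8 libraries (log10 axis), 1 point per gene tested, with the 459 called higher in red, the 468 called lower in blue and the rest in grey. AC015813.2, AC015813.1 and KCNT1 are the largest called rises and RF01957, PCSK5 and KLRA1P the largest called falls among genes with a group mean of at least 100.

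The 2 largest rises among called genes with a group mean of at least 100 were on chromosome 17. AC015813.1, a long non-coding RNA at chr17:57989039-57994850 on the minus strand, held 529.7, 506, 453 and 455 in control and 2978, 3143, 3328 and 3637 in BPS1. The log2 fold change was 2.75 ± 0.10, or 6.72-fold (adjusted p = 1.96e-06), and no library fell between the groups. AC015813.2, on the same strand at chr17:57989038-58007246, contains AC015813.1 and reaches into SRSF1, a splicing factor gene, so reads cannot be divided cleanly among the 3. It held 147, 58.0, 63.6 and 73.3 in control and 712, 828, 805 and 1309 in BPS1, with control replicate 1 and BPS1 replicate 4 each the highest of their group (3.46 ± 0.29, adjusted p = 3.87e-04). The SRSF1 row did not rise, with 19738 ± 1309.9 in control and 18373 ± 278 in BPS1 (−0.10, adjusted p = 0.473).

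A channel gene, a complement gene and an RNA sensor rose severalfold from low levels. KCNT1 (chr9:135702185-135795508) encodes a potassium channel opened by sodium. Its libraries held 20.6, 27.0, 28.1 and 16.6 in control and 177, 134, 147 and 165 in BPS1. The log2 fold change was 2.72 ± 0.20, or 6.60-fold (adjusted p = 1.74e-04). DDX58 (chr9:32455705-32526324) encodes RIG-I, the cytoplasmic sensor of double-stranded RNA. It stood at 79.8, 83.3, 98.2 and 79.99 in control and at 366, 397, 396 and 391 in BPS1 with little spread in either group (2.17 ± 0.11, adjusted p = 2.65e-05). C7 (chr5:40909252-40982939), a terminal component of the complement cascade, was at 13.7, 22.6, 18.2 and 24.4 in control and 67.7, 91.9, 113 and 129 in BPS1 (2.28 ± 0.25, adjusted p = 0.00140). All 4 BPS1 libraries exceeded all 4 controls for each of the 3 genes, as the rule that chose them required.

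Genes of signalling pathways were among the other leading rises. DKK1 (chr10:52314296-52318042), a secreted inhibitor of Wnt receptors, held 999, 1009.8, 867 and 752 in control and 2736, 3251, 3093 and 3757 in BPS1. No library of one group came near the other (1.82 ± 0.13, adjusted p = 1.47e-04), although the antisense gene PRKG1-AS1 covers the first bases of DKK1. PLXNA2 (chr1:208022242-208244320), a receptor for semaphorins, held 2328, 1565, 1953 and 2050.1 in control and 6203, 6118, 6063 and 6003 in BPS1, and the BPS1 values lay within a narrow band (1.64 ± 0.11, adjusted p = 1.46e-04). ETV4 (chr17:43527844-43579620), an ETS transcription factor induced by ERK signalling, averaged 170.2 ± 30.3 in control and 559 ± 105 in BPS1 (1.71 ± 0.17, adjusted p = 8.20e-04), and it overlaps DHX8 on the opposite strand. PAPLN, which encodes the matrix protein papilin, averaged 72.1 ± 10.4 and 250.4 ± 40.1 (1.78), and AC093155.3, a row annotated as protein-coding that overlaps HS2ST1 and LINC01140 on its own strand, averaged 73.9 ± 9.77 and 284 ± 45.5 (1.92). HES1 and BAMBI complete the 12 and are described with their pathways.

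The 12 largest falls included 2 nuclear genes of mitochondrial proteins. SLC25A13 (chr7:96120220-96322147) encodes citrin, the aspartate and glutamate carrier of the inner membrane. It held 4221, 4426, 4275 and 4164 in control and 1282, 1311, 1065 and 1164 in BPS1, with an SD of 113 in each group (−1.83 ± 0.09, adjusted p = 1.79e-05). Its near relative SLC25A12 did not pass, at 856 ± 108 and 1186 ± 128 (0.47, adjusted p = 0.0514). UQCC2 (chr6:33694293-33711727), an assembly factor of respiratory complex III, held 2086, 1674, 1584 and 1353 in control and 495, 459, 440.2 and 527 in BPS1 (−1.79 ± 0.13, adjusted p = 2.14e-04), and it overlaps ITPR3 on the opposite strand. The related factors UQCC1 and UQCC3 had log2 fold changes of −0.15 and 0.26 and did not pass.

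Falls in neuronal and imprinted genes followed. STMN2, a microtubule regulator of growing neurites on chromosome 8, held 11604, 10871, 10375 and 10584 in control and 4116, 3061, 2942 and 2822 in BPS1. It fell in every BPS1 library, least in replicate 1 (−1.76 ± 0.12, adjusted p = 1.35e-04), whereas its family members STMN1, STMN3 and STMN4 did not pass (log2 fold changes of −0.11, −0.02 and 0.47). RTL1 (chr14:100879753-100903722), an imprinted gene derived from a retrotransposon, held 5792, 5927, 6125 and 6075 in control and 2280.5, 1845, 1729.7 and 1704 in BPS1. The groups were far apart (−1.67 ± 0.10, adjusted p = 8.60e-05), but MEG8 and microRNAs lie on the opposite strand of RTL1. HRK (chr12:116856144-116881441), a pro-apoptotic member of the BCL2 family, held 455, 474, 579.8 and 501 in control and 204, 186, 225 and 162 in BPS1 (−1.37 ± 0.13, adjusted p = 6.31e-04).

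The other leading falls were more variable or less certain. PCSK5, a proprotein convertase, held 1356, 728, 882 and 581 in control and 279, 149, 140.4 and 103 in BPS1 (−2.42 ± 0.32, adjusted p = 0.00390), a wide spread in both groups with no overlap. PIGA, which starts the synthesis of the anchor that ties many proteins to the cell surface, held 1208, 1578, 1665 and 1219.6 in control and 861, 408, 507 and 406 in BPS1 (−1.43 ± 0.23, adjusted p = 0.0101), with BPS1 replicate 1 closest to the controls. IQSEC3, an exchange factor found at synapses, averaged 397 ± 44.5 and 117 ± 23.8 (−1.77). Its row had no position and no GC content, so overlaps and the GC trend were not checked for it. KLRA1P, a pseudogene of a lectin receptor family, averaged 284 ± 26.4 and 60.7 ± 17.6 (−2.24) and shares sequence with relatives. RN7SL2, a copy of the RNA of the signal recognition particle, averaged 454 ± 292 and 121 ± 60.8 (−1.83, adjusted p = 0.0387), and near-identical copies make its row uncertain. Of the 24 leading genes, NEAT1 included, RN7SL2 was the only one to lose its call when single libraries were left out (adjusted p up to 0.108), and all 24 were called without both libraries that stood apart.

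**Figure D3:**
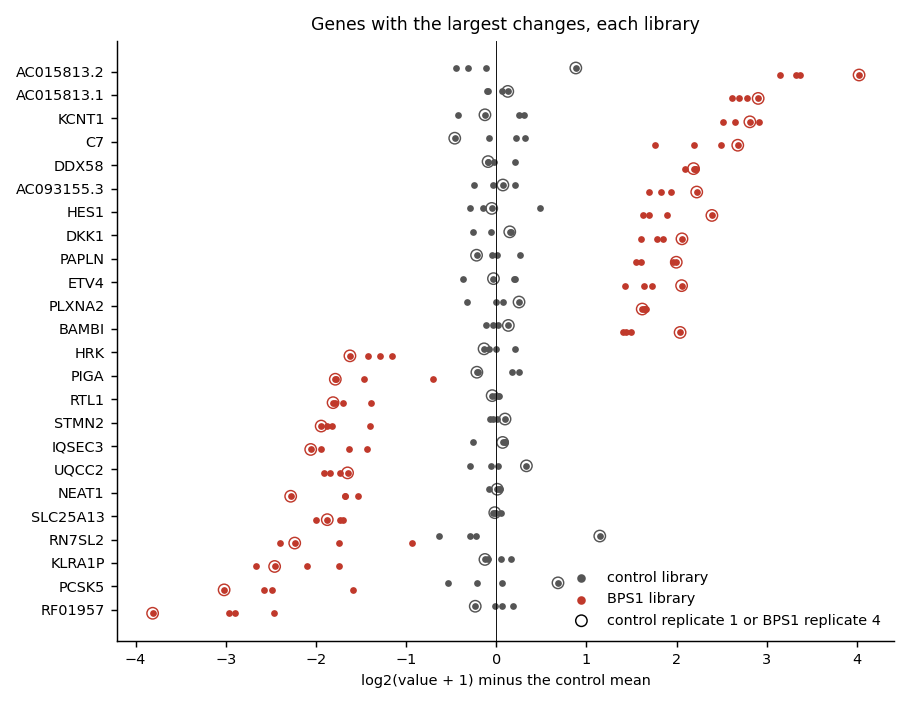
The 12 largest rises and 12 largest falls, 1 row per gene, with log2(value + 1) of each library minus the control mean (control in grey, BPS1 in red, rings around control replicate 1 and BPS1 replicate 4). Every BPS1 point of a gene lies on one side of all its control points, as the rule that chose these genes required. The ringed BPS1 library is often the farthest, as for BAMBI and NEAT1.

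Some genes of BMP and TGF-beta signalling rose, and none tested was called lower. BMPs act through SMAD proteins, which switch on the ID genes and also SMAD6, SMAD7 and BAMBI, inhibitors that limit the same signal. Of 34 tested members 8 were higher and 0 lower by limma (15 and 0 at an unadjusted p under 0.05, against 9.72% of all genes higher and 9.58% lower), and the median log2 fold change was 0.25. Among the inhibitors, SMAD6 held 648, 632, 623 and 775 in control and 1740, 1680.5, 1755 and 2447 in BPS1 (1.50 ± 0.13, adjusted p = 4.43e-04). BAMBI, a decoy receptor, held 391.5, 329.5, 361 and 348 in control and 965, 948, 1008 and 1469 in BPS1 (1.59 ± 0.15, adjusted p = 4.73e-04). In both, BPS1 replicate 4 was the highest and the other 3 BPS1 libraries lay close together, and without the libraries that stood apart the log2 fold changes were 1.36 and 1.49. SMAD7, which blocks the receptors of both pathways, rose from 306 ± 23.7 to 477 ± 68.9 (0.63 ± 0.12).

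The ID genes are direct targets that block differentiation factors of the helix-loop-helix class, and 2 of the 4 rose. ID1 held 351, 306, 306 and 330.1 in control and 729, 744, 831 and 1346 in BPS1 (1.45 ± 0.18, adjusted p = 0.00313), and ID2 rose by 0.37 on the log2 scale. ID3 and ID4 did not pass (0.58 and 0.51, adjusted p = 0.108 and 0.0550). PMEPA1, a feedback inhibitor of TGF-beta signalling, rose by 0.52, and the ligand TGFB2 rose by 0.74. The receptors BMPR1A, BMPR1B and BMPR2 had log2 fold changes between 0.00 and 0.13, and the transducers SMAD1, SMAD4 and SMAD5 between 0.02 and 0.16, and none of these 6 passed. Without the libraries that stood apart 13 members were higher and 0 lower.

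Sequence just upstream of the start sites of SMAD6 and BAMBI is shown because these are the strongest rises among the SMAD feedback genes (RefSeq, GRCh38.p14, plus strand, 5′ to 3′, chr15:66702184-66702235 and chr10:28677272-28677385). Capitals mark GTCTAGAC, a palindrome that SMAD proteins bind, in SMAD6 and GGCGCC, a core of GC-rich BMP-responsive elements, in BAMBI. Here and below, letters were searched on both strands in the 250 bases before the start.
SMAD6: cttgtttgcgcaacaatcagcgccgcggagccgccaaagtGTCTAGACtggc
BAMBI: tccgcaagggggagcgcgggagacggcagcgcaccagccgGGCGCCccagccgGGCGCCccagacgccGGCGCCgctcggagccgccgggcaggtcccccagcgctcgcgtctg
GTCTAGAC begins 12 bases before the SMAD6 start and was found in 24 of the 12454 promoters of tested genes that could be matched (0.193%). GGCGCC occurs 3 times before the BAMBI start, at 209, 196 and 181 bases, and was found in 24.4% of the same promoters. The motif shown for each gene was chosen by which one matched. Among the 7 matched promoters of called genes of this list GGCGCC was in 2 (28.57%) and GTCTAGAC in 1. ID1, ID2, SMAD7 and TGFB2 had neither. A match describes the letters only.

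A few Wnt and Notch genes rose. Of 26 tested Wnt genes 6 were higher and 0 lower (8 and 3 at an unadjusted p under 0.05), with a median of 0.01. LGR5, a receptor that strengthens Wnt signals, rose from 455 ± 118 to 883 ± 143 (0.97 ± 0.18, adjusted p = 0.0171). The inhibitors DKK1 and APCDD1 (0.83), the transcription factors LEF1 (0.63) and TCF7 (0.61) and the receptor FZD7 (0.54) also rose. AXIN2 and NKD1, which are common readouts of Wnt activity, did not pass (−0.08 and 0.19, adjusted p = 0.847 and 0.635). The counts without the libraries that stood apart were 6 higher and 1 lower.

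Of 28 tested Notch genes 2 were higher and 0 lower (7 and 2 at an unadjusted p under 0.05), with a median of 0.11. The share called, 7.14%, is near the 4.69% of all genes tested. HES1, a repressor that Notch induces, held 26.5, 24.8, 38.9 and 22.2 in control and 105, 87.0, 91.3 and 148 in BPS1. Its lowest BPS1 library was more than 2-fold above its highest control (1.90 ± 0.23, adjusted p = 0.00240). HEY1, a related repressor, held 426, 399, 426 and 492 in control and 749, 698, 765 and 896 in BPS1 (0.83 ± 0.11, adjusted p = 0.00371). NRARP, a direct Notch target, and the effector RBPJ had log2 fold changes of 0.00 and 0.03 and did not pass. Without the libraries that stood apart 4 were higher and 1 lower. The sequence before the HES1 start (RefSeq, GRCh38.p14, chr3:194136023-194136109, plus strand) carries GTGGGAA, the core that RBPJ binds, in capitals, 85 bases before the start.
HES1: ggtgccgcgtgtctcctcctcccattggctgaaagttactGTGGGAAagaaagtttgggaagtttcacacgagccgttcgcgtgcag
The letters GTGGGAA, on either strand, were found in 5.16% of the 12454 promoters, in 3.25% of those of genes that rose and in 5.75% of those of genes that fell.

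Some immediate early genes and feedback genes of the ERK pathway rose. ERK signalling induces FOS and EGR1 within minutes and then the SPRY, SPRED and DUSP inhibitors that shut it off. Of 40 tested members 8 were higher and 0 lower (16 and 1 at an unadjusted p under 0.05), 35 had a positive log2 fold change and the median was 0.36. SPRY4, a feedback inhibitor, held 834, 897, 840.3 and 837 in control and 1838, 2168, 2109 and 2149 in BPS1, with little spread in either group (1.27 ± 0.08, adjusted p = 1.35e-04). EGR1, a zinc finger factor, held 63.1, 73.8, 80.2 and 48.2 in control and 113, 179, 177 and 177 in BPS1 (1.27 ± 0.21, adjusted p = 0.0105). DUSP4, a phosphatase that inactivates ERK, rose by 0.68, as did the stress factor ATF3. FOS held 51.7, 245, 44.8 and 32.9 in control and 212, 440.2, 461 and 335 in BPS1, so control replicate 2 lay above BPS1 replicate 1 (2.38 ± 0.55, adjusted p = 0.0417), and without the libraries that stood apart it was not called (adjusted p = 0.0632). DUSP6 and SPRY2, which also report ERK activity, did not pass (0.11 and 0.29). Without those libraries 15 members were higher and 0 lower.

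Some cholesterol genes fell. The transcription factor SREBF2 drives the enzymes of this pathway when sterols run short. Of 34 tested members 7 were lower and 0 higher (16 and 0 at an unadjusted p under 0.05), only 5 had a positive log2 fold change and the median was −0.25. HMGCS1, which makes the precursor for the committed step, held 9282, 11008, 11103 and 10773 in control and 6746, 7169, 7153 and 5852 in BPS1 (−0.65 ± 0.09, adjusted p = 0.00568). MSMO1, a sterol demethylation enzyme, held 2652, 2515, 2865 and 2653 and 1700.3, 1745, 1810.4 and 1827 (−0.59 ± 0.07, adjusted p = 0.00304). The groups were separate for both. SREBF2 fell from 11666 ± 1067 to 8209 ± 301 (−0.50 ± 0.08, adjusted p = 0.00959), and HSD17B7 and LBR, enzymes of later steps, fell by 0.50 and 0.45.

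The largest falls in the cholesterol list were in 2 genes that do not make sterols. IDH1, a cytosolic enzyme that supplies NADPH, held 3773, 3755, 3532 and 3380 in control and 1713, 1528, 1458 and 1581 in BPS1 (−1.20 ± 0.08, adjusted p = 1.35e-04). ABCG1, a sterol exporter that oxysterols induce, fell from 261 ± 18.0 to 118 ± 19.1 (−1.16 ± 0.14, adjusted p = 0.00261). The counts without the libraries that stood apart were 17 lower and 0 higher. Of 23 tested fatty acid synthesis genes limma called 0 in either direction (4 higher and 5 lower at an unadjusted p under 0.05), and without those libraries 2 were higher and 5 lower.

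The sequence before the SREBF2 start is shown because that gene both falls and regulates the list (RefSeq, GRCh38.p14, chr22:41832932-41833020, plus strand). Capitals mark TCACCCCAC, a match to the sterol regulatory element TCACNCCAC, 133 bases before the start.
SREBF2: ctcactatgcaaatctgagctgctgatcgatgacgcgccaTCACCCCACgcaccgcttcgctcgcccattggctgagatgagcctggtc
TCACNCCAC was found on either strand in 0.827% of the 12454 promoters and in 1 of 27 promoters of the cholesterol list, which is this one.

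**Figure D4:**
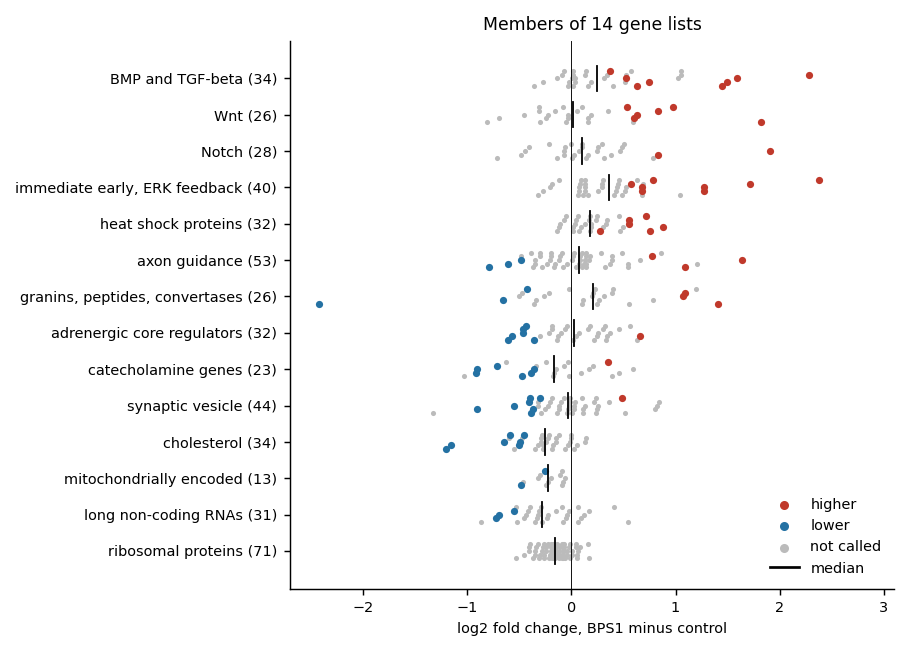
Log2 fold changes of the tested members of 14 gene lists (number tested in brackets), with members called higher in red, called lower in blue, not called in grey, and a black line at each list's median. Calls in the BMP and TGF-beta, Wnt, Notch, immediate early and heat shock lists are all upward, those in the cholesterol list all downward, and ribosomal protein genes have none.

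The adrenergic identity of the cells was measured by its transcription factors and by the enzymes they control. In bulk RNA fewer cells of a type and less RNA per cell cannot be told apart. Of 32 tested core and accessory factors 6 were lower and 1 higher, with a median of 0.03. HAND2, one of the factors that define sympathetic neurons, held 18586, 17560, 16638 and 16386 in control and 11732, 10945, 11125 and 13005 in BPS1 (−0.56 ± 0.08, adjusted p = 0.00502). It was lower in every BPS1 library than in any control, as were EYA1 (−0.60), INSM2 (−0.46), MEIS1 (−0.46) and TFAP2B (−0.44), while TBX2 rose (0.66). PHOX2A, GATA3 and ISL1 did not pass (0.02, −0.14 and −0.30). MYCN, the amplified oncogene, was at 86629 ± 5124 in control and 76172 ± 7569.6 in BPS1 and did not pass (−0.19, adjusted p = 0.257). Without the libraries that stood apart 8 members were lower and 7 higher.

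Of 23 tested catecholamine genes 6 were lower and 1 higher, with a median log2 fold change of −0.17. DDC, which makes dopamine, held 12314, 10550, 9874 and 9049 in control and 5814, 4938, 4915 and 6713 in BPS1 (−0.90 ± 0.13, adjusted p = 0.00502). DBH, which turns dopamine into noradrenaline, fell from 30761 ± 1408 to 24041 ± 2404 (−0.36 ± 0.08), and MAOA, which breaks both down, fell from 9335 ± 758 to 4984 ± 647 (−0.91 ± 0.10, adjusted p = 0.00186). The vesicle transporter SLC18A1 and the receptors ADRA2A and DRD2 also fell (−0.48, −0.72 and −0.38). TH, the rate-limiting enzyme, was at 4667, 4329, 4439.5 and 4434 in control and 3327, 3122, 3216 and 4712 in BPS1 and did not pass (−0.33, adjusted p = 0.183). CYB561, which supplies electrons to DBH, rose by 0.35. The counts without the libraries that stood apart were 10 lower and 3 higher.

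Peptide genes moved in both directions. In the list of granins, neuropeptides and their processing enzymes 3 of 26 tested were higher and 3 lower. Of the secreted precursors 3 rose: VGF held 183, 189, 225 and 183 in control and 382, 505, 492 and 747 in BPS1 (1.41 ± 0.19, adjusted p = 0.00390), SCG2 rose from 1058 ± 90.03 to 2244 ± 381 (1.07 ± 0.13) and NPY from 108 ± 10.2 to 239 ± 82.5 (1.09 ± 0.21). CHGA, the granin with the highest normalized count, went the other way but did not pass, at 112870 ± 14943 in control and 79890 ± 13236 in BPS1 (−0.50, adjusted p = 0.0532), and neither did CHGB (−0.22, adjusted p = 0.273). Of the enzymes that cut and finish such precursors 3 fell, PCSK5 by 2.42, CPE by 0.66 (1304 ± 123 to 825 ± 15.2) and PAM by 0.43. In VGF and NPY, BPS1 replicate 4 was the highest library by a wide margin, and without both libraries that stood apart their log2 fold changes were 1.20 and 0.94, while 4 members were higher and 6 lower, CHGA and CHGB among these.

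Of 44 tested genes of synaptic vesicles and release 7 were lower and 1 higher, with a median of −0.03. SNAP25, a core protein of vesicle fusion, held 1647, 1704, 1802 and 1600.3 in control and 1342, 1259.5, 1320.5 and 1202 in BPS1 (−0.40 ± 0.08, adjusted p = 0.0233), and CADPS, which primes dense-core vesicles, fell by 0.91. RPH3A, a vesicle effector of RAB3A, was the one that rose (0.48, not called with the GC trend removed, adjusted p = 0.0515), while RAB3A itself fell (−0.55). Without the libraries that stood apart 7 were lower and 3 higher. In the neurite list 2 of 38 tested were lower, STMN2 and MARCKS (−0.40), and 0 higher (4 higher and 11 lower at an unadjusted p under 0.05), and without those libraries 11 were lower and 3 higher. The share called in the neurite list, 5.26%, is near the 4.69% of all genes tested.

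Guidance genes were split. Of 53 tested 3 were higher and 3 lower (11.3%, against 4.69% of all genes tested). Leaving out the libraries that stood apart gave 5 higher and 3 lower. Besides PLXNA2, PLXNA4 held 671, 824, 745 and 741 in control and 1614, 1735, 1717 and 1316 in BPS1 (1.09 ± 0.11, adjusted p = 9.46e-04), and the netrin receptor UNC5B rose from 9308 ± 367 to 15923 ± 567 (0.77 ± 0.07, adjusted p = 3.87e-04). SEMA4F, EPHB3 and EFNB3 fell (−0.79, −0.61 and −0.48). In a list of retinoic acid uptake, binding, receptor and target genes, RET and NGFR included, 3 of 23 tested were higher and 0 lower. At an unadjusted p under 0.05 there were 3 and 3, and without those libraries 5 and 1 were called. RET, the receptor for GDNF ligands, held 7106, 7524, 7896 and 8384 in control and 12144, 13672, 13974 and 13085 in BPS1 (0.78 ± 0.08, adjusted p = 9.46e-04), with every BPS1 library above every control. NGFR, the low-affinity neurotrophin receptor, and STRA6, which takes up retinol, rose by 0.68 and 0.43. KCNH6 was the only potassium channel gene besides KCNT1 to pass among 49 tested (100.4 ± 6.56 to 212 ± 27.0, 1.07 ± 0.13), with 0 lower (8 lower at an unadjusted p under 0.05). The share called, 4.08%, is near the 4.69% of all genes tested. Without those libraries 5 potassium channel genes were higher and 5 lower.

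In the mesenchymal list, which marks the other state of neuroblastoma cells, 4 of 36 tested were higher and 1 lower, with a median of 0.02. SNAI1 and SNAI2, repressors of epithelial genes, rose from 368 ± 37.5 to 663 ± 123 (0.83) and from 19.4 ± 7.10 to 50.8 ± 4.07 (1.42). The fibronectin gene FN1 and the integrin gene ITGB5 rose by 0.54 and 0.58. CD44, a hyaluronan receptor used as a marker of this state, fell from 1271 ± 123 to 798 ± 165 (−0.69 ± 0.15, adjusted p = 0.0362). The counts without the libraries that stood apart were 7 higher and 3 lower.

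DDX58 was the only gene of RNA sensing and interferon signalling to be called higher. Of 32 tested members 1 was higher and 2 lower (2 and 6 at an unadjusted p under 0.05), with a median of −0.01. The share called was 9.38%, against 4.69% of all genes tested. The counts without the libraries that stood apart were also 1 and 2. DHX58, a relative of RIG-I, fell from 35.4 ± 7.22 to 15.1 ± 4.45 (−1.20 ± 0.25, adjusted p = 0.0287). STAT2, a transducer of the interferon receptor, held 897, 855, 906 and 856 in control and 505, 441, 417 and 392.4 in BPS1 (−1.01 ± 0.10, adjusted p = 7.56e-04). The interferon-induced genes IFIT1, MX1 and OAS3 did not pass (−0.07, −0.03 and 0.00), and neither did the adaptor MAVS (0.01). Of 20 tested NF-kB genes limma called 0 (2 higher and 1 lower at an unadjusted p under 0.05), and 0 were higher and 1 lower without the libraries that stood apart.

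Heat shock genes were higher in part. Of 32 tested 6 were higher and 0 lower (11 and 0 at an unadjusted p under 0.05), with a median of 0.18. HSPA1B, an inducible chaperone, held 3881, 3819, 3843 and 3831 in control and 5632, 6051, 5998 and 7781 in BPS1 (0.72 ± 0.10, adjusted p = 0.00521), but it shares nearly all its sequence with HSPA1A and its row is uncertain. The HSPA1B row had no GC content, so its call was not checked with the GC trend removed. HSPB8, a small heat shock protein, rose from 130.3 ± 14.7 to 241 ± 34.1 (0.88 ± 0.14). The constitutive chaperones HSPA8 and HSP90AB1 did not pass (−0.07 and −0.05). Without the libraries that stood apart 10 were higher and 0 lower.

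Stress and cell cycle lists held few changes. Of 32 tested p53 genes 1 was lower and 0 higher (3.1%, against 4.69% of all genes tested), with a median of −0.16. Of 21 tested G1 cyclins, kinase inhibitors and pocket proteins 1 was higher and 2 lower (14.3%). CDKN1A, an inhibitor of cyclin-dependent kinases, held 1689, 1652, 1492 and 1703 in control and 1081, 993, 1034 and 1201 in BPS1 (−0.60 ± 0.09, adjusted p = 0.00685). In the list of ATF4 targets and the unfolded protein response SLC7A11, the cystine transporter, fell by 0.94 and the sensor ATF6 by 0.33, 2 of 41 tested, but ATF6 was not called with the GC trend removed (adjusted p = 0.0549). CCNI, a cyclin, rose from 7748 ± 480.1 to 15644 ± 966 (1.01 ± 0.08, adjusted p = 2.53e-04), while CDK4 fell from 7422 ± 815 to 5320.4 ± 682 (−0.48 ± 0.11). CDK4 and ATF6 were each not called in 7 omissions of a single library, and SLC7A11 in 6. Among 40 S phase genes 2 were higher and 1 lower, with POLA1, a subunit of DNA polymerase alpha, at 2020.5 ± 80.6 in control and 1221 ± 58.8 in BPS1 (−0.73 ± 0.08), and among 43 mitotic genes only KIF23 passed (−0.48). The shares called were 4.88% of the ATF4 list, 7.5% of the S phase list and 2.33% of the mitotic list. KIF23 was not called with the GC trend removed (adjusted p = 0.0730) or in 7 of the 8 omissions of a single library. With the libraries that stood apart left out, 1 gene of the ATF4 list was higher and 4 lower, 8 S phase genes were higher and 3 lower, and 2 mitotic genes were higher and 2 lower. In the same setting 1 gene of the p53 list was higher and 6 lower, and 2 of the G1 list were higher and 4 lower.

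Mitochondrial RNA was lower as a share of all values. Genes of the mitochondrial chromosome took 8.67 ± 0.448% of each library's total in control and 7.56 ± 0.184% in BPS1 (SD, n = 4), with ranges of 8.15% to 9.23% and 7.31% to 7.74% that do not overlap (exact two-sided permutation p = 0.0286, the smallest possible here). All 13 protein-coding mitochondrial genes had a negative log2 fold change, with a median of −0.22, and 2 were called, MT-CO2 (−0.49) and MT-ATP8 (−0.25). Neither was called with the GC trend removed (adjusted p = 0.0722 and 0.120) or in 7 of the 8 omissions of a single library, whereas 9 of the 13 were lower without both libraries that stood apart. The 2 ribosomal RNAs of mitochondria, chosen after their values were seen, went opposite ways, MT-RNR1 from 21471 ± 3425 to 35649 ± 7129.5 (0.72) and MT-RNR2 from 330020 ± 25174 to 221060 ± 13479 (−0.58). Nuclear genes of the respiratory chain had 1 call among 47, UQCC2 (2.13%, against 4.69% of all genes tested), and a median of 0.07. Without those libraries 3 were higher and 3 lower.

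Long non-coding RNAs and ribosomal protein genes, which RNA quality can move, had negative medians. Of 31 tested long non-coding RNAs 3 were lower and 0 higher (12 and 0 at an unadjusted p under 0.05), with a median of −0.28. The share called was 9.68%, against 4.69% of all genes tested. SNHG3 and GAS5, hosts of small nucleolar RNAs, fell from 4001 ± 374 to 2421 ± 246 (−0.73) and from 14005 ± 1186 to 9679.7 ± 1798 (−0.55), and MIR17HG, the host of a microRNA cluster, fell by 0.69. GAS5 was not called with the GC trend removed (adjusted p = 0.0825) or in 7 of the 8 omissions of a single library. Without the libraries that stood apart 16 members were lower and 1 higher. MALAT1, the neighbour of NEAT1, held 14124, 6917, 7149.6 and 5515 in control and 4689, 4616, 4249.8 and 3759 in BPS1 and did not pass (−0.87, adjusted p = 0.0802). Of 71 ribosomal protein genes limma called 0 (0 higher and 4 lower at an unadjusted p under 0.05), the median was −0.16, and without those libraries 37 were lower and 0 higher. The part of RNA quality in these differences was not tested.

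BPS1 was also set directly against BPS2, the other morpholino, in a fit of all 12 libraries whose contrast uses no control. Of 20454 genes tested 333 were higher in BPS1 (1.63%) and 470 lower (2.3%), together 3.93%. Among the leading rises the 5 largest differences were in AC015813.2, KCNT1, AC015813.1, DDX58 and PAPLN. DDX58 was 85.2 ± 11.4 in BPS2 against 388 ± 14.5 in BPS1 (SD, n = 4), a log2 difference of 2.18 (adjusted p = 5.40e-07), and KCNT1 was 25.9 ± 9.76 against 156 ± 19.2 (2.60, adjusted p = 5.61e-05). AC015813.1 was 554 ± 15.0 in BPS2 and 3272 ± 283 in BPS1 (2.56, adjusted p = 3.42e-09). In the other direction SLC25A13 was 4692 ± 297 in BPS2 and 1206 ± 113 in BPS1 (−1.96, adjusted p = 1.93e-08), UQCC2 1862 ± 111 and 480.1 ± 38.4 (−1.96) and HRK 488 ± 100.1 and 194 ± 26.8 (−1.31, adjusted p = 3.20e-04).

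NEAT1 itself was lower in BPS1 than in BPS2 (−1.10, adjusted p = 5.67e-04), whereas RF01957 did not differ past the threshold (0.30, adjusted p = 0.684). IDH1, HMGCS1 and CDKN1A were lower in BPS1 as well (−1.19, −0.99 and −0.83, adjusted p = 6.27e-07, 1.43e-05 and 1.47e-04), and so were STMN2 (−1.06) and RTL1 (−1.16). CCNI was higher (1.01, adjusted p = 1.90e-06). For a set of genes the difference did not pass: C7 (−0.42, interval −0.92 to 0.08, adjusted p = 0.400), DKK1 (0.25, interval 0.00 to 0.50), HES1 (0.63, interval 0.16 to 1.10), ID1 (0.16, interval −0.19 to 0.51), RET (0.16, interval 0.00 to 0.31) and VGF (0.25, interval −0.13 to 0.64), each with its 95% interval from limma. A p that misses the threshold does not show that the morpholinos act alike on these genes.

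**Figure D5:**
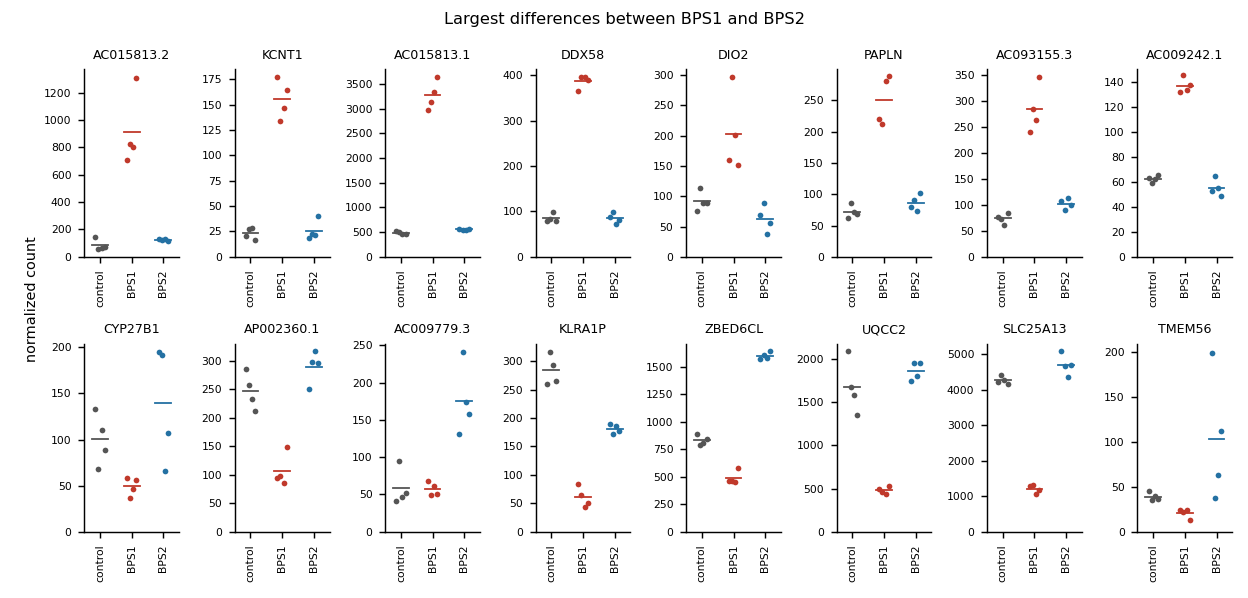
Normalized counts per library (points, linear axes from 0) and group means (lines) of the 8 genes most above BPS2 (top) and the 8 most below BPS2 (bottom) in BPS1, with control, BPS1 and BPS2 in grey, red and blue. In DDX58, KCNT1 and AC015813.1 the BPS1 libraries stand far above the other 8 libraries, and in SLC25A13 and UQCC2 far below them.

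Where the controls lay differed among the largest differences. ZBED6CL, a gene of a domesticated transposase family, held 462, 459, 450.4 and 580.4 in BPS1, 885, 787, 801 and 842 in control and 1571, 1607, 1579 and 1642 in BPS2 (−1.72 for BPS1 minus BPS2, adjusted p = 3.81e-07), so BPS1 was the lowest group and BPS2 the highest. AC009779.3 averaged 57.3 ± 9.15 in BPS1, 58.9 ± 24.6 in control and 176 ± 47.1 in BPS2 (−1.58), so control lay near BPS1. DIO2, which activates thyroid hormone, averaged 202 ± 66.6 in BPS1, 91.7 ± 15.7 in control and 63.0 ± 21.4 in BPS2 (1.68, adjusted p = 0.00264). TMEM56 and CYP27B1 varied widely within BPS2, with SDs of 71.4 and 64.1 around means of 103 and 140.1, and CYP27B1 (−1.38, adjusted p = 0.0293) was not called without BPS1 replicate 1, 2 or 3 or BPS2 replicate 1, 2 or 4 (adjusted p up to 0.0966). Without control replicate 1 and BPS1 replicate 4 the counts for BPS1 against BPS2 were 1392 higher and 2107 lower.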

How the data were processed

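Total RNA from KELLY cells was depleted of ribosomal RNA, made into stranded libraries and sequenced as single 100-base reads, per the labels' protocols. Tools listed in the submitters' processing notes are FastQC 0.11.7, Salmon 0.8.2 and DESeq2, on GRCh38. For DESeq2 the version, and for genes the annotation release, is not given in the sources used here. What the authors deposited is a signal, normalized counts made by the authors, 1 per gene and library. Up to 20 steps, 67.8% to 71.3% of values in these 8 libraries lay within 0.001 of whole multiples of 1 read, so whole reads were not recovered and no count test was run. BPS1 replicate 3 has a column spelled BSP1, and BPS2 columns were matched by sample title.

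Genes that reached 10 in 4 or more libraries were tested on log2(value + 1), which understates the change of low genes, with limma 3.58.1 in R 4.3.3 (eBayes with a mean-variance trend, two-sided, Benjamini-Hochberg threshold 0.05). BPS1 against control used its 8 libraries and BPS1 minus BPS2 all 12. Libraries of a group differed beyond sampling noise (chi-square per gene 1.98 to 26.4 over 2576 genes), so each counted once. The fit was tested on simulated data.

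The members and the gene lists were chosen with earlier results of these data known, so list counts are descriptions. Genes named were NEAT1, the 12 largest rises and falls called, not overlapping and with a group mean of at least 100, up to 5 members per list with the smallest p and exceptions, and 8 differences each way from BPS2. Some genes that this rule names are not reported here. Members that did not pass were named as exceptions after their values were seen. Positions are from GENCODE release 29, which held 53405 of 55771 identifiers. Promoters are from RefSeq, matched for 12454 of 19785 genes. Replicate numbers did not pair libraries (correlations of same-numbered deviations of −0.300 to 0.0917). Alternatives covered pseudocount, filter, scaling, variance, weights, block, fold minimum, GC trend and omitted libraries.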

Additional observations from a re-analysis of the deposited data

Results flagged for a closer look

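Within the groups of 4 libraries of the 24 leading genes, 48 groups in all, 2 held a library far from the other 3 by Dixon's criterion at 95%, a result chance gives in about 1 group in 20. BAMBI, the BMP decoy receptor, was at 1469 in BPS1 replicate 4 and at 965, 948 and 1008 in the other BPS1 libraries. IQSEC3, the exchange factor of synapses, was at 330.05 in control replicate 3 and at 414, 421 and 421 in the other controls. In both genes the groups are separate, which the rule that chose the leading genes required, so leaving out that library could not change it.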

How the results depend on the processing

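NEAT1 kept its call and its direction under the 23 alternatives run. The counts of calls moved more. For BPS1 against control, where 459 genes were higher and 468 lower, no filter on low values gave 301 and 303, library weights 1390 and 1550, a 1.5-fold minimum 29 and 16, all 12 libraries in the fit 885 and 891, and the omission of both control replicate 1 and BPS1 replicate 4 1148 and 1319. Leaving out single libraries gave 157 to 629 higher and 156 to 780 lower, lowest without BPS1 replicate 3 and control replicate 2 and highest without BPS1 replicate 4. With the replicate number as a block 70 were higher and 50 lower, and with the block and the GC trend removed 93 and 83, but the numbers do not pair these libraries. For BPS1 minus BPS2, against 333 and 470, library weights gave 1493 and 2133, a 1.5-fold minimum 14 and 14, the replicate block 94 and 170, the omission of both libraries 1392 and 2107, and single omissions 180 to 644 and 280 to 1120, highest without BPS1 replicate 4. Leaving out each BPS2 library was chosen after seeing the data. None of the 109 genes chosen by the naming rule changed direction. Of these, 60 kept their call in every omission of a single library and all 109 without both libraries, but FOS, named as an exception, did not. Of the 851 values for gene lists 833 stayed within the spread and 18 moved. The value of 1 read, 0.940 to 1.09, limits low rows: 36 tested genes had every control under 10, and 24 had every BPS1 library under 10. Such genes pass the filter through 1 group alone, and 18 of the 36 and 8 of the 24 were called. The cause of these differences was not tested.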

Other observations

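Several of the largest rises were in sparse rows that the rule on means left out, and they are named here after their values were seen. Of these, AC009086.2, AC011840.4 and ALOX12P1 had every control under 10 and passed the filter through BPS1 alone. The filter thus fixed in advance that their groups are separate. Of the 36 tested genes with every control under 10, 18 were called, against 4.69% of all genes tested. AC009086.2 was listed at 0 in the 4 controls and averaged 65.6 ± 64.1 in BPS1, where its SD was close to its mean. AC011840.4 averaged 0.516 in control and 26.6 in BPS1, and its neighbour ALOX12P1, a pseudogene 2096 bases past the end of GOSR1 on the same strand, averaged 0.491 and 17.8. GOSR1, a Golgi transport gene, was itself higher, at 2255 in control and 3456 in BPS1. FERMT3, a gene of integrin activation in blood cells, starts 2135 bases past the end of STIP1 and averaged 12.7 ± 5.74 in control and 81.6 ± 18.1 in BPS1, with STIP1 at 9971 and 12040. HAL, 4463 bases past LTA4H, averaged 3.03 and 19.9, and AC015813.1 begins 8510 bases past SRSF1. Of the tested genes with a position 27.86% started within 20 kb past the end of another tested gene on the same strand, against 30.83% of the 133 that rose at least 2-fold, a share near the background. Among rows that are not protein-coding the share was 26.54% of those tested, 40% of the 50 that rose and 40% of the 35 that fell at least 2-fold.

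Among neighbouring tested genes 92 pairs of 19133 had both members called, 66 in the same direction and 26 in opposite directions, and 23 of the 66 overlapped. On chromosome 12 TSPAN31 was higher (0.97) and CDK4, which overlaps it on the other strand, lower (−0.48). On chromosome 15 ISLR2, ISLR and STRA6 were higher together (0.94, 1.33 and 0.43).

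GDI2, a regulator of RAB proteins, is among the abundant genes with a steep rise, from 8244 ± 251 to 17513 ± 1015 (log2 fold change 1.09, adjusted p = 1.28e-04). RGS4, a brake on G protein signals, fell from 39661 ± 2536 to 26769 ± 1961, and IGF2, a fetal growth factor, from 46251 ± 1893 to 34950 ± 323.

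The letters TGACGTCA, the cyclic AMP response element, were found in 5.20% of 308 promoters of genes that rose, 2.62% of all 12454 and 0.959% of 313 promoters of genes that fell. None of the promoters of called genes in the immediate early list was among them (0 of 6).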
